A study of Mus musculus with 15 samples.

Results

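40 genes that build the extracellular matrix or mark hepatic stellate cells were followed in the livers of Stab1-/- and wildtype mice. They were taken by symbol from a list that holds no measured value but was drawn up with earlier results of these data known, and each of the 40 was found on 1 of the 19464 rows of the deposited gene table. Total RNA of whole dissected livers was sequenced, 1 library per mouse, from E17.5 fetuses and from mice aged 2 weeks. The groups were Stab1-/- at 2 weeks (n = 4), wildtype at 2 weeks (n = 4), Stab1-/- at E17.5 (n = 3) and wildtype at E17.5 (n = 4), all labelled with the strain background C57BL/6N;129SvJ. Stab1-/- mice lack Clever-1, the protein encoded by Stab1, from all cells. The labels name no treatment, litter or processing batch, so that age and any batch shared by an age cannot be told apart.

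Stellate cells lie between hepatocytes and the sinusoidal endothelium, store retinyl esters made by Lrat, and respond to PDGF and TGF-beta ligands. In injured liver they become contractile, switch on Acta2 and secrete fibrillar collagens, and with portal fibroblasts they are the main source of scar matrix. Basement membrane chains such as type IV collagen also come from endothelium, and the hepatocyte is itself a large source of fibronectin (Fn1) and type XVIII collagen (Col18a1). Clever-1 is carried by sinusoidal endothelium and by subsets of macrophages, where it takes up ligands from outside the cell.

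Each library held 9.66 to 10.96 M reads on genes, and replicates of a group differed by more than counting noise. Stab1 itself was at 1.09 ± 0.31 RPKM (reads scaled by gene length and by the reads of the library) in Stab1-/- and 9.29 ± 1.55 in wildtype mice of 2 weeks (SD, n = 4 each, by a two-sided exact permutation P = 0.02857). At E17.5 it was at 4.37 ± 0.817 (n = 3) and 17.2 ± 3.17 RPKM (n = 4, exact permutation P = 0.05714), and the Stab1-/- libraries kept 68 to 443 reads of the gene. Which part of Stab1 is deleted was not analysed here. Of the stellate cell genes on the list, Lrat, Reln, Hgf and Pdgfrb had reads in every library. A library that stood apart was Stab1-/- E17.5 library 1. The summed level of 13 smooth muscle genes was 246.8 RPKM in it, against 57.2 and 64.0 in the other Stab1-/- E17.5 libraries and 50.0 to 62.8 in wildtype. The sum of 14 intestinal epithelium genes was 588 RPKM in library 1. It was 181 and 196 in the other Stab1-/- libraries and 137.1 to 190.1 in wildtype. Most of the intestinal sum outside library 1 was Tff3. The other 13 genes summed to 364.8, 24.7 and 46.9 RPKM in Stab1-/- libraries 1, 2 and 3 and 28.7 to 35.9 in wildtype. Cdh17, one of them, had 42 reads in library 3 and 3 to 5 in each wildtype library. The 9 mesothelium genes summed to 52.3, 19.8 and 19.4 RPKM in the Stab1-/- libraries and 20.8 to 26.2 in wildtype. Myh11, the heavy chain of smooth muscle myosin, was at 17.3 RPKM there and at 1.17 and 1.98 in libraries 2 and 3. The gut peptide Guca2a was at 59.9, 0 and 3.20 RPKM in libraries 1, 2 and 3, and all 4 wildtype E17.5 libraries had no read of it. For the 40 genes, fold changes and main counts of calls that use Stab1-/- E17.5 livers are therefore given with and without library 1. Library 3, with its intestinal reads, stays in the values without library 1, and its part in them was not tested. The wildtype E17.5 libraries also differed in pancreatic acinar genes, whose sum ran from 13.5 to 2793 RPKM. In Stab1-/- E17.5 libraries that sum was 11.8 to 79.3 RPKM, and its part in the results was not tested.

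The genes ran from traces to some of the more abundant transcripts of the liver. The highest mean levels per length among wildtype livers aged 2 weeks were those of Fn1 (325 ± 49.1 RPKM), Col18a1 (220 ± 33.0), Dcn (126 ± 13.8), Col3a1 (97.6 ± 15.8), Bgn (61.2 ± 10.02) and Eln (47.2 ± 6.60, SD, n = 4 each). The ranges of neighbours in that order overlapped for Dcn and Col3a1 and for Bgn and Eln, but not for Fn1 and Col18a1, whose closest libraries were at 282 and 249 RPKM. At the low end stood Tgfb2 (0.412 ± 0.0614) and Timp1 (0.372 ± 0.0688), the latter with 3 or 4 reads in a library, and as few as 2 in Stab1-/- livers of that age. Timp1, an inhibitor of matrix metalloproteinases, did not pass the filter on low counts at 2 weeks, which left 39 of the 40 genes to test there.

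**Figure D1:**
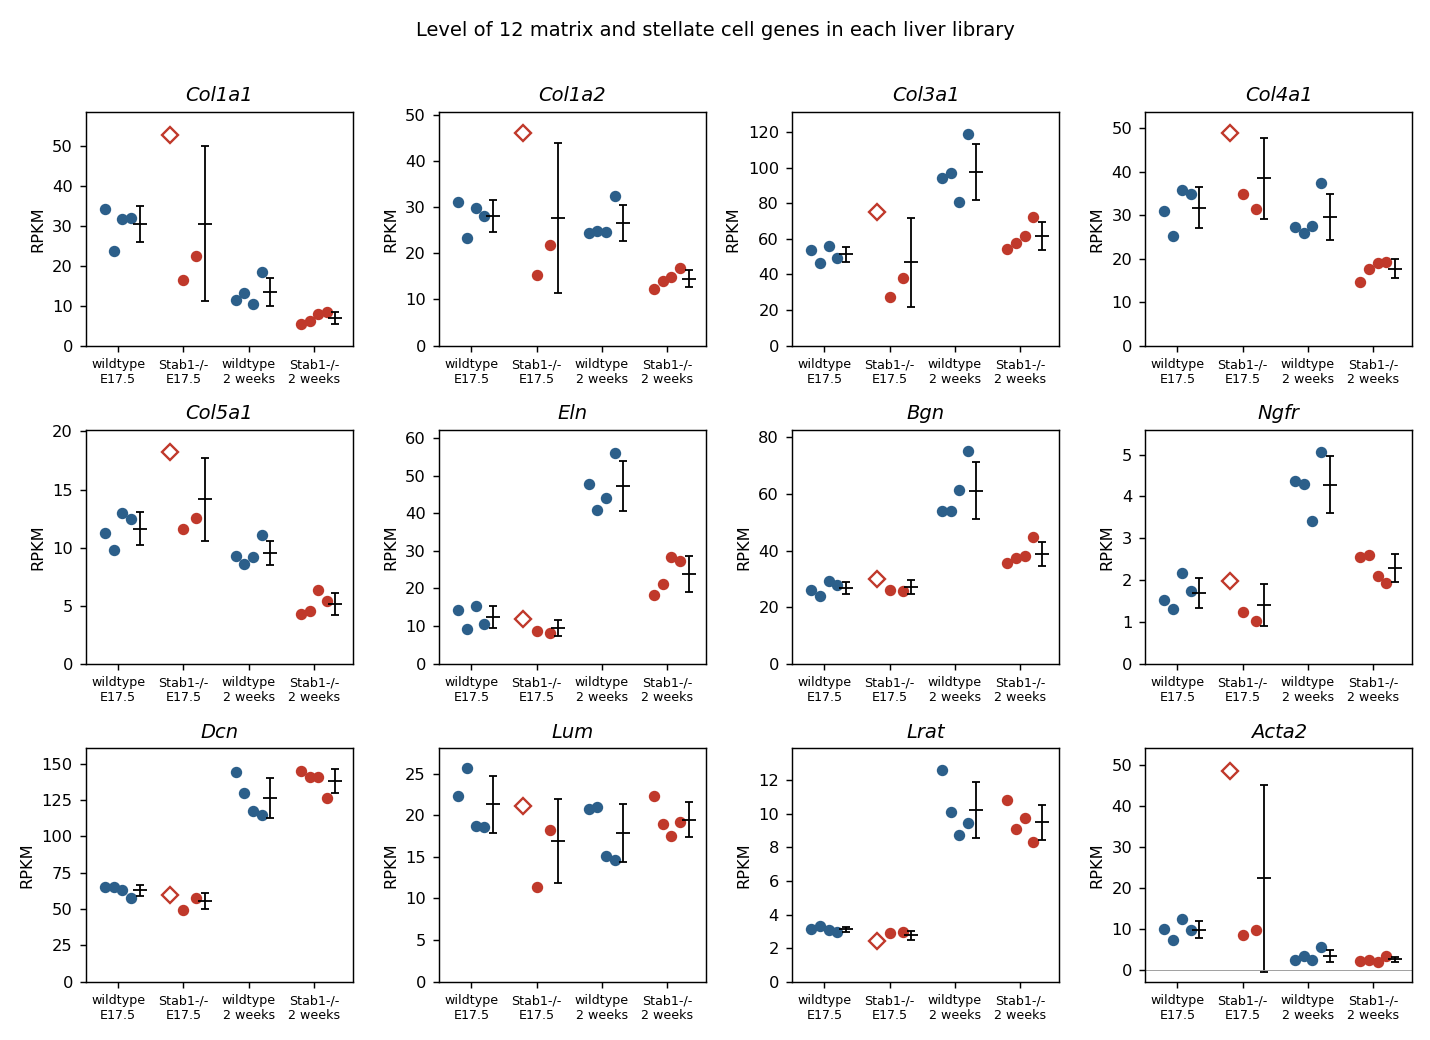
RPKM of 12 of the genes in each of the 15 libraries, by group, with the mean and SD in black; wildtype libraries are blue, Stab1-/- libraries red, and the open diamond is Stab1-/- E17.5 library 1. For Col1a1, Col1a2, Col3a1, Col4a1, Col5a1, Eln, Bgn and Ngfr every Stab1-/- library at 2 weeks lies below every wildtype library, while the groups overlap for Dcn, Lum, Lrat and Acta2.

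The first question was how these genes differed between genotypes at 2 weeks. 16 of the 39 genes tested fell in Stab1-/- livers and 0 rose (edgeR quasi-likelihood test, Benjamini-Hochberg adjusted P under 0.05 over 12716 genes), where 1.74% of all genes tested were called lower and 0.936% higher. DESeq2 called 21 lower and 0 higher, the same 16 and Fn1, Col6a1, Col6a3, Col15a1 and Pdgfra. The log2 fold change was below 0 for 34 of the 39, and its median was -0.54 against -0.01 over all genes tested. An unadjusted P under 0.05 was found for 26 of the 39, against 2975 of all 12716 genes tested. For 20 of the 39 every Stab1-/- library was below every wildtype library, and for 0 every library was above. Over all genes tested these shares were 4.5% and 10.4%. In bulk liver, fewer cells of a type and less RNA per cell cannot be told apart. With the depth of each library set by its total reads alone, 12 fell and 0 rose, against 118 and 137 of all 12716 genes tested. The share of higher genes among all calls was then 53.7% in place of 35.0%.

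All 5 fibrillar collagen genes fell. Col1a1 and Col1a2 encode the chains of type I collagen, the main fibre of scar and capsule. Col1a1 was at 5.30, 6.16, 7.98 and 8.42 RPKM in the Stab1-/- libraries and at 11.5, 13.0, 10.5 and 18.5 in wildtype, a log2 fold change of -1.03 ± 0.21 (SE, adjusted P = 0.0255). Col1a2 was at 12.3, 13.9, 14.8 and 16.7 RPKM against 24.4, 24.9, 24.5 and 32.4 (-0.97 ± 0.15, adjusted P = 0.00618). Neither gene's groups overlapped, and wildtype library 4 held the highest value of both. Col3a1, the most abundant of the 5, was at 61.5 ± 7.78 RPKM in Stab1-/- and 97.6 ± 15.8 in wildtype (-0.75 ± 0.15, adjusted P = 0.0229). Col5a1 and Col5a2 encode type V collagen, which starts and narrows type I fibrils. Col5a1 stood at 4.27, 4.55, 6.32 and 5.38 RPKM against 9.26, 8.60, 9.20 and 11.04 (-0.99 ± 0.15, adjusted P = 0.00579). Col5a2, a neighbour of Col3a1 on chromosome 1, fell by 0.53 on the log2 scale (SE 0.13, adjusted P = 0.0486).

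The elastic fibre genes fell with them. Eln, which encodes elastin, had the largest difference of the 39. It was at 18.3, 21.1, 28.3 and 27.2 RPKM in Stab1-/- and 47.8, 40.9, 44.0 and 56.1 in wildtype libraries (-1.08 ± 0.16, adjusted P = 0.00677). The highest Stab1-/- library thus stayed well under the lowest wildtype library. Fbn1, the fibrillin on which elastin is laid down, was at 1.53 ± 0.109 RPKM against 2.43 ± 0.407 (-0.76 ± 0.14, adjusted P = 0.017). Fn1 was at 186, 247, 256 and 259 RPKM against 283, 282, 373 and 361, without overlap, but missed the threshold (-0.55 ± 0.16, adjusted P = 0.0888).

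In the basement membrane group 3 of 5 genes fell. Col4a1 and Col4a2 encode the common chains of type IV collagen and lie side by side on chromosome 8. Col4a1 was at 14.7, 17.6, 19.1 and 19.3 RPKM against 27.2, 26.0, 27.6 and 37.4 (-0.83 ± 0.15, adjusted P = 0.0157). Col4a2 was at 8.14, 11.8, 12.3 and 12.3 RPKM against 18.4, 16.4, 18.8 and 25.7 (-0.92 ± 0.18, adjusted P = 0.0229). Stab1-/- library 1 was lowest and wildtype library 4 highest for both. Nid1, the linker between laminin and collagen networks, was at 18.1 ± 2.35 RPKM against 27.2 ± 3.57 (-0.68 ± 0.13, adjusted P = 0.02). Col15a1 had a log2 fold change of -0.997 ± 0.288 (adjusted P = 0.0798) at means of 0.443 and 0.825 RPKM, and Col18a1 of -0.38 ± 0.15 (adjusted P = 0.165) with overlapping groups. Of the other nonfibrillar collagens, Col14a1, which sits on the surface of fibrils, fell from 27.0, 26.2, 25.2 and 30.6 RPKM in wildtype to 14.6, 14.7, 18.7 and 19.4 (-0.78 ± 0.13, adjusted P = 0.0114). The 3 chains of type VI collagen had log2 fold changes of -0.66 (Col6a3, adjusted P = 0.0506), -0.52 (Col6a2, 0.0971) and -0.51 (Col6a1, 0.0747) and were not called.

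Of the small proteoglycans, which bind collagen fibrils, Bgn fell and Dcn and Lum were not called. Bgn was at 35.4, 37.2, 38.0 and 45.0 RPKM in Stab1-/- and 54.1, 54.0, 61.5 and 75.3 in wildtype libraries (-0.75 ± 0.15, adjusted P = 0.0229). Dcn, the most abundant of them, was at 145, 141, 141 and 126 RPKM against 144, 130, 117 and 114.3, and its log2 fold change of 0.04 had a 95% interval of -0.16 to 0.24. For Lum the value was 0.04, with an interval of -0.24 to 0.31. The intervals of Dcn and Lum, neighbours on chromosome 10, thus lay above that of Bgn, which ran from -1.07 to -0.43. A difference between these genes was not tested.

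Among the enzymes, Mmp2, a gelatinase, fell by 0.59 on the log2 scale (SE 0.14, adjusted P = 0.0455), from 12.2 ± 1.90 to 8.63 ± 0.658 RPKM. The inhibitors Timp2 and Timp3 had values of -0.17 ± 0.10 and -0.18 ± 0.14. The crosslinking enzymes Lox (-0.25 ± 0.26) and Loxl1 (-0.65 ± 0.22, adjusted P = 0.119) were not called. Timp1 was at 0.784, 0.627, 0.801 and 0.227 RPKM in Stab1-/- and 0.317, 0.446, 0.416 and 0.311 in wildtype livers, with overlapping groups.

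Of the stellate and mesenchymal cell genes Ngfr, Reln and Vim fell, while Lrat, Hgf, Des and Acta2 were not called, and differences between these genes were not tested. Ngfr, the low-affinity neurotrophin receptor of stellate cells, was at 2.56, 2.61, 2.10 and 1.93 RPKM in Stab1-/- and 4.37, 4.29, 3.42 and 5.06 in wildtype libraries (-0.99 ± 0.15, adjusted P = 0.0069). Reln, a secreted glycoprotein of stellate cells, was at 11.4, 13.0, 15.9 and 11.7 RPKM against 19.1, 15.9, 18.3 and 21.7 (-0.62 ± 0.14, adjusted P = 0.034). The highest Stab1-/- and lowest wildtype library of Reln nearly met. Vim, an intermediate filament of mesenchymal cells, was at 23.3, 21.7, 24.6 and 22.7 RPKM against 33.8, 28.0, 33.0 and 28.4 (-0.51 ± 0.10, adjusted P = 0.0229). Lrat was at 10.8, 9.09, 9.76 and 8.33 RPKM against 12.6, 10.1, 8.75 and 9.46 (-0.20 ± 0.11, adjusted P = 0.305). Hgf, the hepatocyte growth factor, had a value of 0.12 ± 0.21. Des, another intermediate filament, was at 3.50 ± 0.459 RPKM against 4.27 ± 0.797 (-0.38 ± 0.17, adjusted P = 0.204). Acta2, the smooth muscle actin of contractile stellate cells, was at 2.13, 2.43, 1.85 and 3.43 RPKM against 2.38, 3.21, 2.38 and 5.43 (-0.54 ± 0.30, adjusted P = 0.298). The groups overlapped for Lrat, Hgf, Des and Acta2, and the interval of Acta2, -1.19 to 0.11, contained the log2 fold changes of all 13 collagen genes on the list.

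None of the PDGF receptors, TGF-beta ligands or the TGF-beta target on the list was called by edgeR at 2 weeks, 2 of these 6 genes had an unadjusted P under 0.05, and DESeq2 called Pdgfra lower. Pdgfra had a log2 fold change of -0.54 ± 0.14 (adjusted P = 0.0581) without overlap of its groups, and Pdgfrb of -0.54 ± 0.18 (adjusted P = 0.111). Tgfb1 was at 8.96, 8.98, 8.85 and 8.53 RPKM against 10.5, 9.58, 8.59 and 8.73 (-0.17 ± 0.10, adjusted P = 0.302). Tgfb2, Tgfb3 and the TGF-beta target Ctgf had values of -0.37 ± 0.23, 0.03 ± 0.26 and 0.24 ± 0.19. Thy1, a surface marker of fibroblasts, had -0.37 ± 0.33 at fewer than 1 RPKM in either group.

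**Figure D2:**
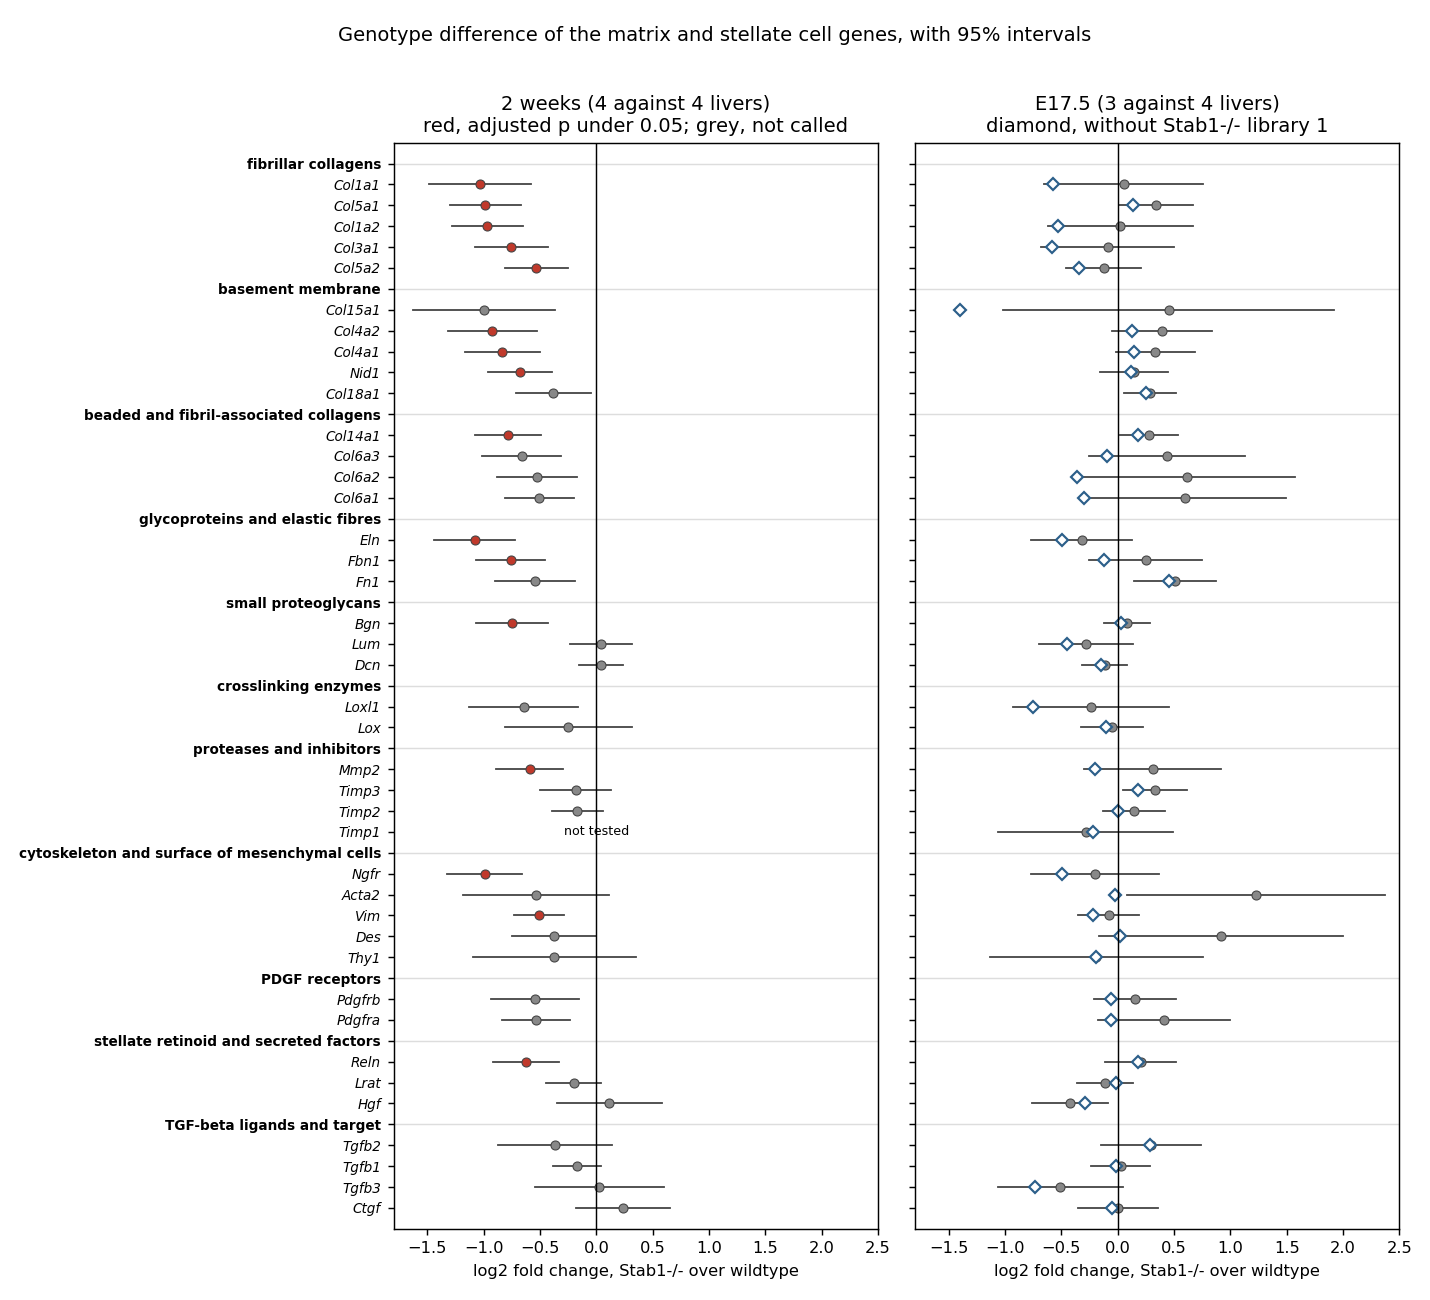
Log2 fold change of Stab1-/- over wildtype with its 95% interval for each gene, in blocks by role, at 2 weeks (left) and at E17.5 (right); red points are called and diamonds leave out Stab1-/- E17.5 library 1. At 2 weeks the 16 called genes lie left of 0, and at E17.5 no point is red, with Acta2 moving from 1.23 to -0.03 without library 1.

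2 libraries stood at the ends of many of these rankings. Stab1-/- library 1 was the lowest of the 8 libraries for 24 of the 39 genes (11.3% of all genes tested), and wildtype library 4 the highest for 26 (13.2%). The number of genes called lower was 6 without Stab1-/- library 1, 7 without Stab1-/- library 2 and 9 without wildtype library 3, and 13 without wildtype library 4. Col14a1, Col1a2, Col4a1, Col5a1, Eln and Ngfr were called lower in all 16 alternative fits. Fold changes at 2 weeks also went with the GC content of transcripts over all genes (Spearman rho -0.34, a description across genes), and the 40 genes had a median GC of 52.9% against 49.5% over genes tested. With the GC trend of each library taken out, 15 of the genes were called lower.

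The stretches before the start of 6 of the genes are shown, those of genes called lower at 2 weeks and that of Lrat, which was not called. They are the 150 bases upstream of the RefSeq start in GRCm38.p6, on the strand of the gene. Capitals mark the GC box GGGCGG, the CCAAT box CCAAT and the TATA box TATAAA on either strand. They lie at chr6:4505468-4505617 (Col1a2, plus strand), chr1:45311388-45311537 (Col3a1, plus), chr2:27886275-27886424 (Col5a1, plus), chrX:73483451-73483600 (Bgn, plus), chr11:95587699-95587848 (Ngfr, minus) and chr3:82903975-82904124 (Lrat, minus).
Col1a2: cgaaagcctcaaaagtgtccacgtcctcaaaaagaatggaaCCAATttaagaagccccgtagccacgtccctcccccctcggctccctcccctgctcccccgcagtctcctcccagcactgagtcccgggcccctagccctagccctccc
Col3a1: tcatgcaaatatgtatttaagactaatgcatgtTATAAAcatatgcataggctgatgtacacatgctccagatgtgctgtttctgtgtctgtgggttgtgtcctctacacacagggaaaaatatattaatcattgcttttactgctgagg
Col5a1: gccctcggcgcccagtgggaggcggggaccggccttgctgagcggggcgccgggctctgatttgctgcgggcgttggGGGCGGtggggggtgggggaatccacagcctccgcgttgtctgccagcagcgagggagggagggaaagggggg
Bgn: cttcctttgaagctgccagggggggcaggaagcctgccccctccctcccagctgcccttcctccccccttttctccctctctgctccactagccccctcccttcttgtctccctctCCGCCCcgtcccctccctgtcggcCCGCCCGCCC
Ngfr: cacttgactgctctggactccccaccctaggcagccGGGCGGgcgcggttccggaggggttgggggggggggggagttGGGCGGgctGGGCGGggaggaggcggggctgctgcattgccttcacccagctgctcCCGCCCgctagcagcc
Lrat: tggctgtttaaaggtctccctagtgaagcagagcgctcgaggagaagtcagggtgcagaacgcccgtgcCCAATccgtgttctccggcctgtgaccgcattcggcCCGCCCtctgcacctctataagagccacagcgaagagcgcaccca
26 of the 40 genes had such a window in the RefSeq table used. The GC box stood in 14 of their 29 windows (48.3%), against 28.6% of 32851 windows of all genes. CCAAT stood in 24.1% against 24.5%, and TATAAA in 10.3% against 7.57%. Of the 11 windows of genes lower at 2 weeks, 6 held the GC box (54.5%), 5 held CCAAT (45.5%) and 2 held TATAAA (18.2%). Ngfr had 4 GC boxes, Bgn had 3, of which 2 overlap, Col3a1 had a TATA box and no GC box, and Lrat had 1 GC box and 1 CCAAT box. A match of letters is a description of the window and shows no binding.

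At E17.5 the question was whether the genes differed before birth as well. None of the 40 tested was called by edgeR or by DESeq2, where 0.194% of all genes tested were called higher and 0.172% lower. An unadjusted P under 0.05 was found for 7 of the 40, against 1728 of all 13388 genes tested. The median log2 fold change was 0.14, with 26 genes above 0. Without Stab1-/- library 1 the median was -0.10, with 12 above 0 and 28 below, 0 called and 10 with an unadjusted P under 0.05. The direction of the list at E17.5 thus depended on that library, which held the highest of the 7 values for 24 of the 40 genes (23.4% of all genes tested).

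Library 1 stood furthest above the mean of libraries 2 and 3 for Col15a1 (9.18 times), Acta2 (5.33), Col6a2 (4.02), Col6a1 (3.74) and Des (3.73). Acta2 and Des are also genes of smooth muscle, and the part of the smooth muscle and gut genes of that library in these values was not tested. Acta2 was at 48.4 RPKM in library 1 and 8.47 and 9.72 in the other Stab1-/- libraries, against 9.86, 7.18, 12.3 and 9.67 in wildtype. Its log2 fold change was 1.23 ± 0.51 (adjusted P = 0.362) with library 1 and -0.03, with an interval of -0.43 to 0.38, without it. Des was at 15.4, 4.64 and 3.62 RPKM against 7.43, 2.92, 3.46 and 3.42, with log2 fold changes of 0.92 ± 0.49 and 0.02. The interval of the latter ran from -0.77 to 0.80, and wildtype library 1 stood above the other wildtype libraries. Ckm, a muscle gene, had 138, 4, 0 and 0 reads in the wildtype libraries and 21, 1 and 1 in the Stab1-/- libraries. The part of wildtype library 1 in the value of Des was not tested here. Col6a2 was at 31.4, 6.23 and 9.38 RPKM against 11.6, 8.21, 11.9 and 10.4, with values of 0.61 and -0.36. For Col6a1 they were 0.60 and -0.30, and for Col15a1, at 1.96, 0.197 and 0.230 RPKM in the Stab1-/- libraries, 0.45 and -1.40. For these 5 genes libraries 2 and 3 lay within or below the wildtype range.

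The fibrillar collagens showed the same library. Col1a1 was at 52.7, 16.3 and 22.4 RPKM in Stab1-/- and 34.2, 23.8, 31.6 and 31.8 in wildtype livers, so that library 1 was above and libraries 2 and 3 below all wildtype libraries. Its log2 fold change was 0.05 ± 0.32 with library 1 (adjusted P = 0.958) and -0.57, interval -0.93 to -0.21, without it (adjusted P = 0.301). Col1a2 went from 0.02 to -0.53 and Col3a1 from -0.09 to -0.58. Col5a1 was less tied to it, with 0.34 ± 0.15 (adjusted P = 0.373) and 0.13.

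Other genes gave closer values with and without library 1. Lrat, at 2.45, 2.88 and 2.98 RPKM against 3.13, 3.29, 3.10 and 2.97, had log2 fold changes of -0.11 ± 0.11 and -0.01. Bgn had 0.08 ± 0.09 and 0.03, Nid1 0.14 ± 0.14 and 0.11, and Reln 0.20 ± 0.14 and 0.18. Fn1, at 431, 437 and 303 RPKM against 279, 253, 349 and 266, had 0.51 ± 0.16 (adjusted P = 0.253) and 0.45 (0.507). Hgf, at 3.35, 4.27 and 4.38 RPKM against 5.43, 6.74, 4.97 and 5.29, was the gene of the 40 whose Stab1-/- libraries all lay below wildtype (9.3% of all genes tested). Its log2 fold change was -0.42 ± 0.15 (adjusted P = 0.302), and -0.29 without library 1. For 0 of the 40 they all lay above, against 2.91% of all genes.

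**Figure D3:**
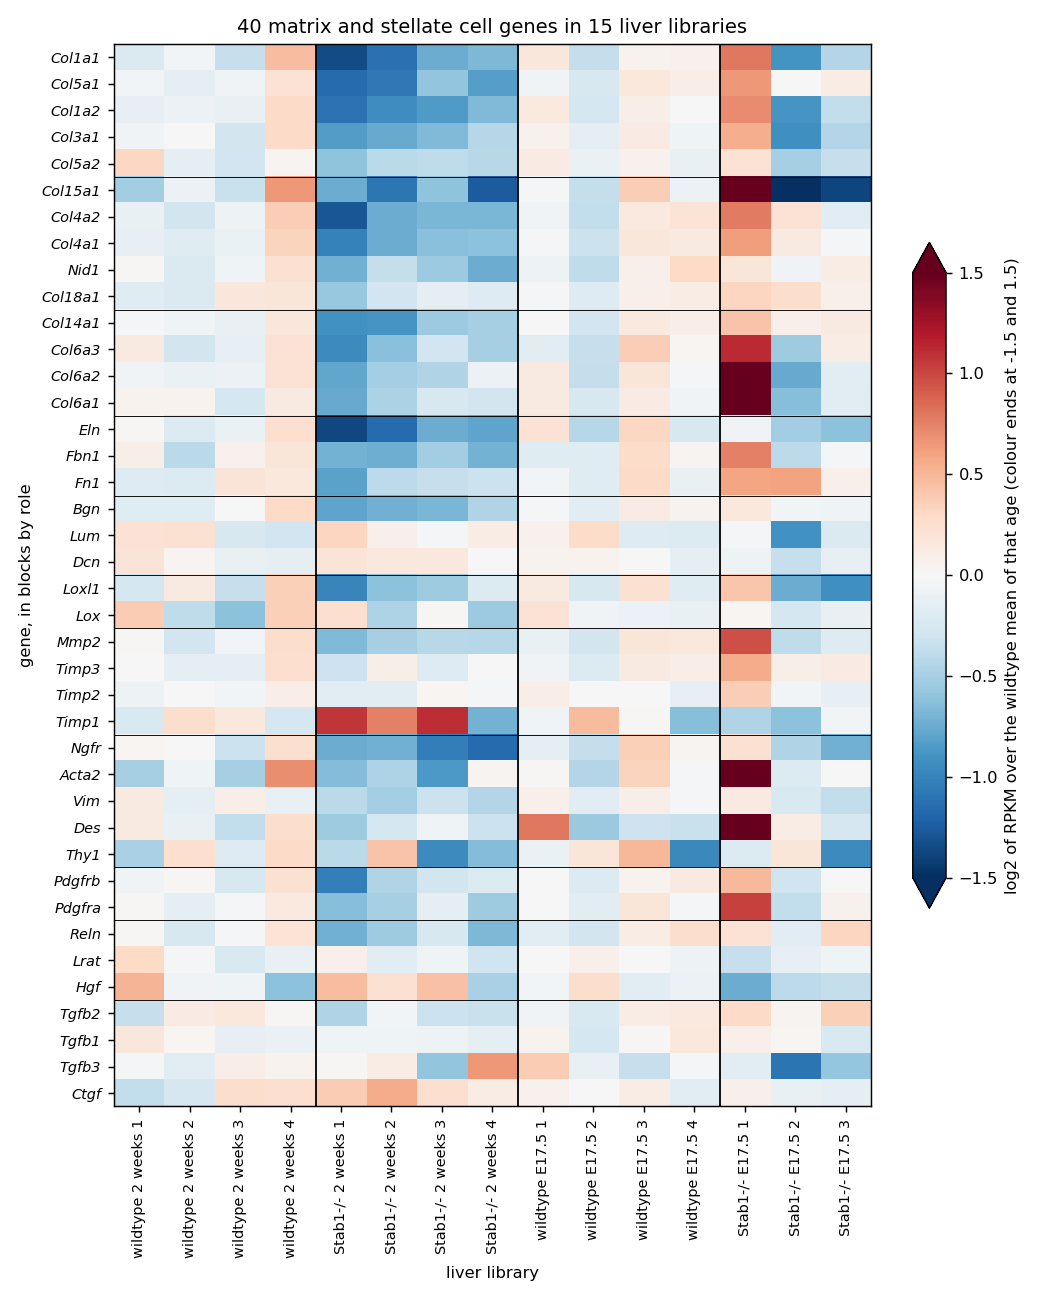
Log2 of RPKM over the wildtype mean of the same age for the 40 genes (rows, in blocks by role) in the 15 libraries (columns), blue for lower and red for higher, with the colour ending at -1.5 and 1.5. The 4 Stab1-/- libraries at 2 weeks are mostly blue over the collagens, elastic fibre genes, Bgn and Ngfr, and Stab1-/- E17.5 library 1 is red where libraries 2 and 3 are pale or blue.

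Between E17.5 and 2 weeks wildtype livers raised 20 of the 39 genes tested and lowered 9, where 34.9% of all genes were called higher and 37% lower. The largest rises were those of Eln (2.29 ± 0.18, adjusted P = 2.38e-07), Lrat (2.07 ± 0.11, 7.91e-09), Ngfr (1.71 ± 0.17, 2.46e-06), Bgn (1.56 ± 0.14, 6.2e-07) and Mmp2 (1.41 ± 0.15, 3.16e-06). Eln went from 14.4, 9.24, 15.4 and 10.5 RPKM at E17.5 to the 40.9 to 56.1 given above, and Lrat from 2.97 to 3.29 RPKM to 8.75 to 12.6. For 13 of the 39, Eln and Lrat among them, every library at 2 weeks was above every library at E17.5, and for 10 below, against 21.1% and 48% of all genes. Dcn (1.37 ± 0.10) and Col3a1 (1.29 ± 0.13) also rose, as did Col18a1 (1.18 ± 0.14), Pdgfrb (1.01 ± 0.13), Col14a1 (0.98 ± 0.12), Reln (0.75 ± 0.14) and Fn1 (0.55 ± 0.16).

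The 5 largest falls were those of Lox, Acta2, Tgfb1, Vim and Col1a1. Lox was at 5.21, 4.30, 4.20 and 4.15 RPKM at E17.5 and 1.51, 0.895, 0.757 and 1.48 at 2 weeks (-1.58 ± 0.20, adjusted P = 1.99e-05). Acta2 fell by 1.18 on the log2 scale (SE 0.26, adjusted P = 0.00139), Tgfb1 by 1.04 (SE 0.11, 4.01e-06) and Vim by 1.03 (SE 0.11, 2.31e-06). Col1a1 fell by 0.82 (SE 0.18, adjusted P = 0.00161) while Col1a2, the other chain of the same collagen, had a value of 0.28 ± 0.14 (adjusted P = 0.0828). Des had 0.34 ± 0.28 (adjusted P = 0.289). With library totals alone the median of all genes moved from -0.01 to -0.38. There 14 genes of the list rose and 12 fell, against 3104 and 6834 of all 13369 genes tested, and Des had -0.02.

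Stab1-/- livers over the same interval raised 11 of 39 genes and lowered 16, with 35.7% of all genes called higher and 36.8% lower. This comparison shares no library with the wildtype one. Lrat (1.99 ± 0.12, adjusted P = 7.76e-08), Eln (1.55 ± 0.19, 1.92e-05), Dcn (1.54 ± 0.09, 7.2e-08) and Hgf (1.36 ± 0.21, 0.000124) rose the most. Acta2 fell by 2.91 (SE 0.55, adjusted P = 0.000594), Col1a1 by 1.88 (SE 0.32, 0.000307) and Lox by 1.76 (SE 0.18, 5.32e-06). Des had -0.93 ± 0.40 (adjusted P = 0.0559). Without Stab1-/- E17.5 library 1, 14 genes rose and 13 fell, with 35% and 35.5% of all genes called. Acta2 then fell by 1.70, Col1a1 by 1.29 and Lox by 1.72, and Lrat rose by 1.88, Eln by 1.69, Dcn by 1.55 and Hgf by 1.21. Des had -0.06 there (adjusted P = 0.793), so that its value rested on library 1. The median of the list was -0.41 with that library and -0.06 without it, against 0.47 in wildtype. With library totals alone 7 rose and 19 fell, against 3758 and 5944 of all 13433 genes tested. The median of all genes then moved from -0.01 to -0.24.

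**Figure D4:**
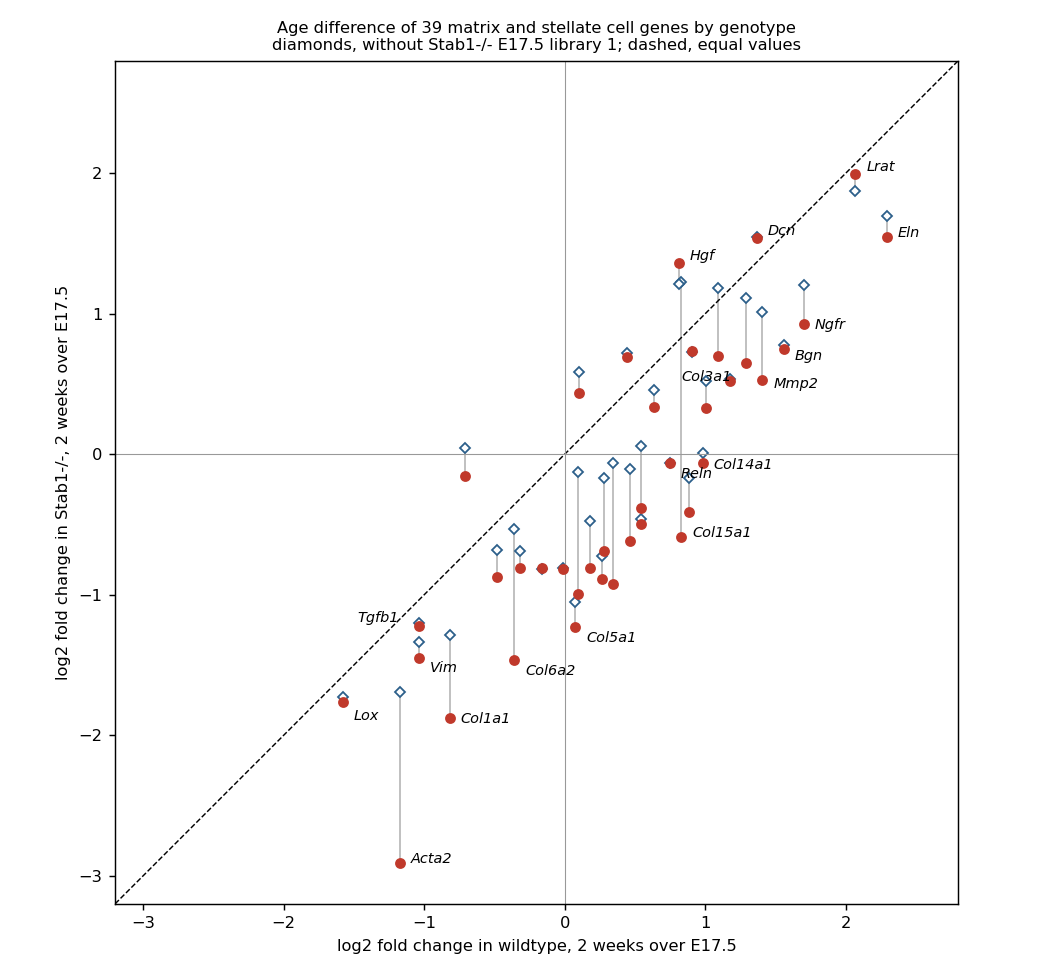
Log2 of the level at 2 weeks over that at E17.5 in wildtype (horizontal) and Stab1-/- livers (vertical) for the 39 genes tested; open diamonds, joined by a line, leave out Stab1-/- E17.5 library 1, and the dashed line marks equal values. Most genes lie below the dashed line, Lrat and Dcn near it, and Acta2 moves from -2.91 to -1.70 without library 1.

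Whether the genotype difference changed with age was tested by an interaction term over all 15 libraries, which is equally a test of whether the age difference depended on genotype. The difference of Stab1-/- from wildtype was higher at E17.5 than at 2 weeks for 6 of the 40 genes and lower for 0, against 1.01% and 0.799% of all genes tested. The 6 were Col5a1 (1.28 ± 0.21, adjusted P = 0.0163), Col14a1 (1.02 ± 0.19, 0.0207), Col4a1 (1.13 ± 0.23, 0.0307), Col4a2 (1.27 ± 0.29, 0.0397), Bgn (0.79 ± 0.19, 0.0452) and Fn1 (1.02 ± 0.25, 0.0461). 25 of the 40 had an unadjusted P under 0.05, against 3215 of all 13885 genes tested. Leaving out Stab1-/- E17.5 library 1 lowered the 25 to 11. DESeq2, with all libraries, called 12 higher and 0 lower. Without Stab1-/- E17.5 library 1 only Col5a1 was called (1.10, adjusted P = 0.0367), where 0.15% of all genes were called higher and 0.0714% lower. The values of the other 5 stayed at 0.76 to 1.03 there, with adjusted P from 0.0568 to 0.117. Leaving out any of 7 other libraries (Stab1-/- 2-week libraries 1, 2 and 3, wildtype 2-week libraries 3 and 4, wildtype E17.5 libraries 1 and 2) left 2 or 3 genes called, and without Stab1-/- E17.5 library 2 there were 4, among them 3 of the 6. Acta2 (1.70 ± 0.67, adjusted P = 0.144), Col1a1 (1.03 ± 0.40, 0.143), Des (1.24 ± 0.55, 0.185) and Lrat (0.06 ± 0.16, 0.87) were not called. Without library 1 their values were 0.49, 0.44, 0.38 and 0.17, also not called. Library totals alone called 6 higher, against 83 higher and 209 lower of all 13885 genes tested. They moved the median of all genes to -0.12 and the share of higher genes among all calls from 55.8% to 28.4%.

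Further genes of the same pathways were read from lists that hold none of the 40. Of 40 other structural matrix genes tested at 2 weeks 27 had an unadjusted P under 0.05, against 2975 of all 12716 genes tested. Their median log2 fold change was -0.52. Of the 40, 11 fell and 0 rose, where 1.74% of all genes were called lower and 0.936% higher. The 11 were Mfap4 (-1.45 ± 0.21), Mfap2 (-1.14 ± 0.26), Lama1 (-1.06 ± 0.22), Nid2 (-0.88), Col16a1 (-0.79), Tnxb (-0.78), Efemp2 (-0.71), Lama2 (-0.70), Lamb1 (-0.64), Emilin1 (-0.57) and Thbs2 (-0.52). Mfap4, a microfibril protein of elastic fibres, was at 2.55, 2.44, 2.94 and 3.87 RPKM against 6.76, 6.60, 7.03 and 9.79. Of 21 genes that process or remodel collagen 4 fell and 0 rose: the procollagen enhancer Pcolce (-0.71), the crosslinking enzyme Loxl2 (-0.68), the collagen chaperone Serpinh1 (-0.60) and the membrane protease Mmp14 (-0.45). In the TGF-beta and PDGF signalling list 1 of 26 fell, the TGF-beta-induced matrix protein Tgfbi (-0.67), and 1 rose, the ligand Pdgfc (0.87 ± 0.20, adjusted P = 0.0413). An unadjusted P under 0.05, in either direction, was found for 14 of these 26 genes and for 10 of the 21 that process or remodel collagen.

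Of 21 other stellate cell and pericyte genes tested at 2 weeks 2 fell, the transcription factors Lhx2 (-0.71) and Hand2 (-0.60), and 0 rose. Over all genes tested 1.74% were called lower and 0.936% higher, the shares beside which the counts of this paragraph at 2 weeks are to be read. For 9 of the 21 the unadjusted P was under 0.05. The median of that list was -0.15. Its 23 genes summed to 389.5 to 428.1 RPKM in Stab1-/- and 384.7 to 460.6 in wildtype livers, so that the groups overlapped. The 50 structural genes summed to 1174 to 1602 and 1608 to 1985 RPKM, without overlap. Most of that sum was Vtn, which encodes vitronectin, a plasma protein made by hepatocytes, at 825.1 to 1179 and 1138 to 1500 RPKM with overlapping groups. The other 49 genes summed to 349.2 to 422.1 and 455.2 to 484.1 RPKM, again without overlap. Among lists of other cells 1 of 11 endothelial genes fell, Kdr (-0.43, adjusted P = 0.0476), a receptor for VEGF, and edgeR called 0 of 6 smooth muscle, 0 of 8 mesothelium, 0 of 4 portal fibroblast, 0 of 4 intestinal epithelium, 0 of 2 pancreatic acinar, 0 of 7 hepatocyte and 0 of 8 erythroid genes. The numbers with an unadjusted P under 0.05 in these 7 lists were 1, 1, 1, 2, 2, 3 and 3, against 2975 of all 12716 genes tested. For the 11 endothelial genes the number was 6, and their median log2 fold change was -0.29. DESeq2 called 3 endothelial and 2 hepatocyte genes lower and 1 intestinal gene in each direction. The 7 hepatocyte genes had a median of -0.43 and summed to 55790 to 71630 RPKM in Stab1-/- against 72180 to 92420 in wildtype, without overlap. Most of that sum was Alb, at 37470 to 47920 against 51570 to 67860 RPKM. The other 6 genes summed to 18320 to 23700 and 20610 to 24560 RPKM, with overlapping groups. The part of the hepatocyte genes in the results for the 40 genes was not tested. The sums of the smooth muscle, mesothelium, portal fibroblast, intestinal, endothelial and erythroid lists overlapped between genotypes, and that of 8 pancreatic genes was higher in Stab1-/- (12.1 to 15.1 against 7.79 to 11.5 RPKM). At E17.5 the periostin gene Postn fell by 0.75 (adjusted P = 0.0421), and by 0.82 without library 1 (adjusted P = 0.054). It was at 18.0, 13.1 and 17.2 RPKM against 29.0, 31.4, 28.5 and 24.0. No other gene of these lists was called by edgeR there, while DESeq2 called 2 structural, 1 smooth muscle, 3 intestinal and 1 hepatocyte gene higher. The interaction called Lama1, Lamc1, Tgfbi, Nid2, Pcolce, Emilin1, Smad7 and Kdr, with values of 0.68 to 1.24, and none of them without library 1, where adjusted P ran from 0.0567 to 0.108.

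In wildtype livers 34.9% of all genes were called higher at 2 weeks and 37% lower, and the counts of the lists are to be read beside these shares. 19 of 23 other stellate cell genes rose with age and 2 fell, led by Rgs5 (4.89 ± 0.33) and Gfap (-5.26 ± 0.21). In the structural list 20 of 45 rose and 17 fell, and the largest differences were falls of Col11a1 (-4.01) and Thbs1 (-3.76). The remodelling list had 7 and 7 of 22, with Mmp8 (-5.55) and Mmp9 (-4.51) in the lead. The TGF-beta and PDGF list had 10 and 3 of 26, with Tgfbi (2.28) among the rises. Of the cell lists, 7 of 7 hepatocyte genes rose, with Tat (6.84) and Cps1 (1.96) first, and 8 of 8 erythroid genes fell, with Ahsp (-8.93) and Slc4a1 (-8.67). Endothelium had 8 higher and 2 lower of 11, led by Clec4g (2.56) and Fcgr2b (2.49), and portal fibroblasts 3 and 3 of 6, led by Pi16 (-4.61) and Mgp (2.77). Smooth muscle had 1 and 2 of 7 (Mylk 1.87, Actg2 -1.96) and mesothelium 0 and 2 of 9 (Wt1 -1.57, Podxl -0.97). Intestine had 2 and 3 of 5 (Fabp2 4.82, Tff3 -4.77) and pancreas 0 and 2 of 2 (Cela2a -6.34, Cela1 -2.03). Wildtype E17.5 library 2 was far above the others for both pancreatic genes. Cela2a was at 11.3, 494, 44.0 and 0.205 RPKM in wildtype E17.5 libraries 1 to 4 and 0.774 to 1.76 at 2 weeks, so that its groups overlapped. Cela1 was at 18.4, 118, 18.9 and 12.8 RPKM, against 6.03 to 9.86.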

How the data were processed

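Liver RNA was isolated with the Nucleo-Spin kit and sequenced at BGI, per the labels. The deposited table holds, for 19464 genes in 15 libraries, whole-number read counts, RPKM values computed by the authors from those counts and the listed gene length, and the percent of each gene covered by reads as deposited, which was not used here for any test. The aligner, counting program, genome build and use of strand are not given in the sources used here, so that reads of overlapping or antisense genes cannot be separated. RPKM recomputed from the deposited counts differed by at most 5.11e-13 percent, 4 rows had no symbol, 222 had no read, and no column belonged to another series.

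The 40 genes were taken by symbol. They, their grouping by role and the other gene lists were chosen with earlier results of these data known. Counts of all rows were fitted with edgeR 4.0.16 (R 4.3.3, TMM, filterByExpr with a minimum count of 10 and total of 15, two-sided quasi-likelihood F test, no covariates), and P-values were adjusted by Benjamini and Hochberg over all genes tested, called under 0.05. Only the 2 groups compared entered a fit, or all 15 libraries for the interaction. Named genes are those called between genotypes or in the interaction, the 5 largest rises and falls in wildtype, the most abundant gene of each role, and Acta2, Des, Lrat and Col1a1, and from other lists those called between genotypes and the 2 with the largest wildtype difference. Other values were chosen for print after they were seen. A gene that the rule names in the TGF-beta and PDGF list is not reported here. Fold changes are on the log2 scale with SE and 95% intervals from the fit, and values with ± are SD for RPKM. Stab1 levels were compared by an exact permutation test (SciPy 1.17.1).

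Alternatives were DESeq2 1.42.0, median-of-ratios or library-total scaling, no count filter, a replicate block, all libraries in 1 fit, a GC-content offset (transcript GC from GENCODE, GRCm38, for 98.7% of rows and all 40 genes), block and offset together, and leaving out each library. A block fit without Stab1-/- E17.5 library 1 was added after seeing the data. The pipeline was tested on simulated data: for the comparison at 2 weeks, with 13366 genes tested, 200 of 200 genes changed by a log2 of 2 were called, with 9 false calls. The largest difference of the listed genes at 2 weeks was -1.08, and recovery of changes of that size or smaller was not tested. Depths of 9.66 to 10.96 M reads leave genes with few reads, such as Timp1, Thy1 and Tgfb2, imprecise. Each sample is a separate mouse per the study's methods.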

Additional observations from a re-analysis of the deposited data

Results flagged for a closer look

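Among 120 sets of 4 libraries, 7 had a library far from the other 3, where chance at 1 in 20 gives 6. Wildtype 2-week library 4 was high for Col1a2 (32.4 RPKM, next 24.9), Col4a1 (37.4, next 27.6) and Col6a2 (7.42, next 6.17). Stab1-/- 2-week library 1 was low for Col4a2 (8.14, next 11.8), and library 3 of that group was high for Fbn1 (1.69, next 1.48). Wildtype E17.5 library 1 was high for Des (7.43, next 3.46) and Lox (5.21, next 4.30). The groups of 3 Stab1-/- E17.5 libraries were not examined in this way.

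The genotype difference at E17.5 exceeded that at 2 weeks, by the interaction term of edgeR, for Bgn (0.79 on the log2 scale, adjusted P = 0.0452), Col14a1 (1.02, 0.0207), Col4a1 (1.13, 0.0307), Col4a2 (1.27, 0.0397), Col5a1 (1.28, 0.0163) and Fn1 (1.02, 0.0461). Without Stab1-/- E17.5 library 1 only Col5a1 remained past the threshold.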

How the results depend on the processing

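At 2 weeks each fit called 0 genes higher. The number called lower was 21 (DESeq2), 15 (median-of-ratios), 12 (library totals), 17 (no filter), 14 (all libraries), 15 (GC offset) and 6 to 18 when each library was left out, lowest without Stab1-/- library 1. 11 of the 16 were called in all 8 fits that kept every library and 6 in all 16. The replicate block gave 24, and 19 with the GC offset. Same-numbered libraries deviated together with correlations of -0.01 to 0.17 at 2 weeks and -0.18 to -0.03 at E17.5, and not every library correlated best with its own number. Each library is 1 mouse, and whether a number marks a shared litter or batch is not settled by these values.

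At E17.5 every fit called 0. Leaving out each library gave -0.026 to 1.60 for Acta2 and -0.572 to 0.338 for Col1a1, both lowest without Stab1-/- library 1. Col1a1 was also below 0 with the block (-0.086), the block and GC offset (-0.082), the block without library 1 (-0.441) and without wildtype library 2 (-0.053). The cause was not tested. In wildtype maturation Des was at -0.015 with library totals (0.34 otherwise). In Stab1-/- maturation library totals gave 7 higher in place of 11.

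For the interaction DESeq2 called 12 in place of 6, the block 7, and the block without Stab1-/- E17.5 library 1 called 0. Leaving out each library gave 1 to 9. Lrat was at -0.064 with library totals and at -0.041 to 0.172 when each library was left out, below 0 without wildtype 2-week library 1 and Stab1-/- E17.5 libraries 2 and 3. Over all named genes 1309 values kept direction and side of the threshold, 172 lost it, 6 gained it and 11 changed sign.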

Other observations

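Ratios of the chains of a collagen, and of the receptors Pdgfra and Pdgfrb, were compared between ages and genotypes. They were chosen after the values were seen, 16 comparisons were made, and 0 had an adjusted P under 0.05. The RPKM of Col1a1 over that of Col1a2 was 0.499 ± 0.062 in wildtype livers at 2 weeks and 1.08 ± 0.0511 at E17.5 (SD, n = 4 each, two-sided exact permutation P = 0.02857, the smallest these groups allow, adjusted P = 0.1143). In Stab1-/- livers it was 0.479 ± 0.0517 (n = 4) and 1.08 ± 0.0591 (n = 3), also without overlap (exact permutation P = 0.05714). Unlike the levels of both genes, the ratio in Stab1-/- E17.5 library 1 lay with those of the other E17.5 libraries. The genotypes overlapped at either age. For Col4a1 over Col4a2 the wildtype ratio was 1.497 ± 0.0571 at 2 weeks and 2.29 ± 0.0736 at E17.5, and for Col6a1 over Col6a2 it went the other way, with 1.35 ± 0.146 and 0.989 ± 0.0545 (exact permutation P = 0.02857 and adjusted P = 0.1143 for both).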
